A study of Mus musculus with 3 samples.

Results

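RNA levels of the proteasome genes were examined in memory phenotype CD4 T cells, which are helper T cells with the surface phenotype of earlier activation. The genes were chosen by symbol: Psm, then a letter from a to g and a digit, on Affymetrix probe sets annotated with a single gene. This gave 49 genes on 103 probe sets, out of 18193 genes named on the arrays. For every gene the probe set with the highest mean over the 3 arrays was used. Of the 49, 47 lay above the median brightness of all probe sets (a mean intensity of 71.4) and were tested among 10341 genes. Because symbols alone chose them, 2 of the 49 are no proteasome subunits: Psmc3ip, a meiotic recombination factor, and Psme3ip1, a binding partner of the activator Psme3. The other 47 are called proteasome genes below, and 45 of them were tested. Of the 5 subunit genes named as interferon-inducible, Psmb8, Psmb9, Psmb10 and Psme1 had a single-gene probe set. The probe set of Psme2 is also annotated with Psme2b, and its value was not analysed here.

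The cells had been sorted from BALB/c spleens to a purity above 99%. The HFD group (2 arrays) came from mice given a high fat diet with 60 kcal% fat for 10 weeks, and the ND group (1 array) from mice given a normal diet for the same 10 weeks. The labels give neither the age of the mice nor the number behind each RNA sample, so the p-values rest on a spread between arrays that may be only technical. Values are linear array intensities, and the number of arrays limits the precision. In RNA from a sorted population, fewer cells of a type and less RNA per cell cannot be told apart.

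The proteasome is the large protease that degrades ubiquitin-tagged proteins. Its 20S core is a barrel of alpha rings, which gate the entrance, and beta rings, in which Psmb6, Psmb7 and Psmb5 carry the active sites. The 19S regulator, built from Psmc ATPases and Psmd non-ATPase subunits, recognises and unfolds substrates. In lymphocytes and under interferon gamma, Psmb9, Psmb10 and Psmb8 take the places of Psmb6, Psmb7 and Psmb5 and form the immunoproteasome, which is known for cutting peptides for MHC class I.

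Over all genes the ND array was the outlying one of the 3. Its absolute log2 distance per gene (median over genes) was 0.39 from HFD 1 and 0.45 from HFD 2, while the HFD arrays lay 0.13 apart. The array labelled ND also went against its strain label at 2 genes of the MHC region. H2-Ea, a class II chain that BALB/c mice express and that RefSeq lists as a transcribed pseudogene in the C57BL/6J assembly, read 536 and 602 on the HFD arrays and 11.5 on the ND array. Of the 9 probe sets of the class I gene H2-D1, looked at because of their values, 3 read from 5720 to 7700 on the HFD arrays and from 8.98 to 82.9 on the ND array. Diet cannot be told apart from strain, or from any handling that the single ND sample did not share. The ratio of 3′ to 5′ signal, a measure of RNA integrity, was 1.27 and 1.34 on the HFD arrays and 1.29 on the ND array for the Actb control. For the Gapdh control it was 0.68 and 0.71 on the HFD arrays and 0.72 on the ND array. The T cell markers Cd3e, Cd4 and Cd5 are given as extras, and their list is counted below. Cd3e read 2558 and 2426 on the HFD arrays and 4167 on the ND array. Cd4 read 609 and 377 on the HFD arrays and 911 on the ND array. Cd5 was nearly level, at 13960 and 13510 on the HFD arrays and 12992 on the ND array.

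Proteasome genes were higher in HFD almost throughout, except the inducible catalytic subunits, which were lower. Of the 41 tested proteasome genes outside the inducible group, called standard here, 37 rose, 0 fell and 4 were not called. Their median log2 difference was 0.81, against -0.15 for all genes tested. At an unadjusted p under 0.05, 38 of them were higher and 0 lower in limma. Both HFD arrays lay above ND in 40 of the 41 and below it in 0, where both lay above in 35.8% of all genes and below in 54.7%. Among the 4 inducible genes with a value, Psmb8, Psmb9 and Psmb10 fell and Psme1 rose. Counting all 47 tested genes of the rule, 39 rose, 3 fell and 5 were not called, where 20.5% of all genes tested were called higher, 29.2% lower and 49.6% either way. Called means an adjusted p under 0.05 in limma's moderated test, on log2 of the intensity plus an offset of 17.65, with Benjamini-Hochberg adjustment over all 10341 genes. All folds below are on that scale.

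The members are bright, and bright genes were called more often. Among the 6550 genes past a stricter brightness filter (a mean intensity of 473.5), 28.7% were called higher, 35.5% lower and 64.2% either way, in a fit on those genes alone. The count of 39 members higher and 3 lower was the same in that fit. The spread in these tests comes from the HFD arrays alone, and the same spread was taken for ND.

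**Figure D1:**
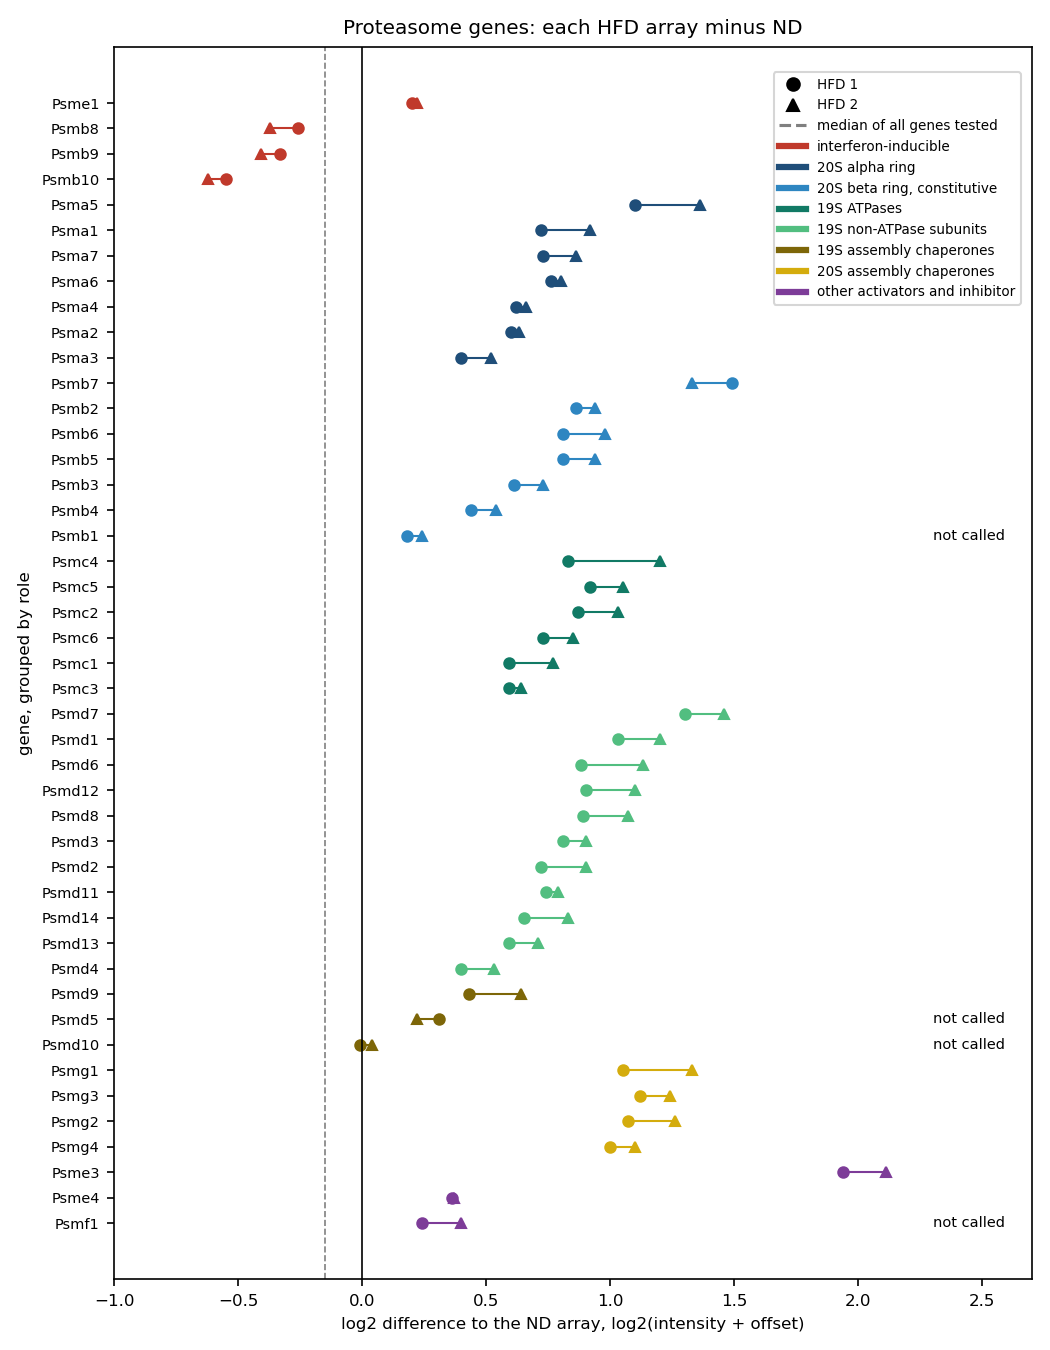
Log2 difference of each HFD array to the ND array (x axis) for the 45 tested proteasome genes (y axis, grouped by role); circles are HFD 1, triangles HFD 2, and the dashed line is the median of all genes tested (-0.15). Psmb8, Psmb9 and Psmb10 lie left of 0 on both HFD arrays, and 40 of the 41 standard genes lie right of 0 on both.

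The inducible catalytic subunits fell by less than 1 log2 unit, and the 2 HFD arrays lay close together in each case. Psmb10, which replaces Psmb7, read 3963 and 3766 on the HFD arrays and 5798 on the ND array. Psmb9, which replaces Psmb6, read 5187 and 4903 on the HFD arrays and 6525 on the ND array. Psmb8, which replaces Psmb5, read 9851 and 9131 on the HFD arrays and 11836 on the ND array. In all 3, both HFD arrays lay under the ND array. Psmb10 fell by 0.58 ± 0.10 on the log2 scale (SE, adjusted p = 4.9e-04). Psmb9 fell by 0.37 ± 0.10 (adjusted p = 0.00726) and Psmb8 by 0.32 ± 0.09 (adjusted p = 0.00882). The second probe set of Psmb8 was much dimmer, at 370 and 408 on the HFD arrays and 634 on the ND array, a log2 difference of -0.68.

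All genes tested had a median log2 difference of -0.15, and relative to it the median of the 4 inducible genes was -0.19. Of the genes tested, 62.0% had a higher log2 difference than Psmb8, 65.8% than Psmb9 and 79.8% than Psmb10. The Psmb8 call ended when arrays were centred on their medians (-0.25, adjusted p = 0.0530), with no filter (adjusted p = 0.0742) and when the variance trend was dropped (adjusted p = 0.126), and the Psmb9 call ended in the last of these (adjusted p = 0.0872). Psmb9, Tap1, Psmb8 and Tap2 follow each other on chromosome 17 in the MHC region, in the same stretch as H2-Ea, and whether a strain difference there touches their probe sets was not tested. Psmb10 lies on chromosome 8, outside that region, and its call held in the alternatives that gave a test. Those alternatives varied the processing only. For Psmb10 too, diet cannot be told apart from strain or handling.

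Psme1 moved the other way. It encodes the alpha chain of PA28, an interferon-inducible cap that opens the 20S core without ubiquitin. Its intensity was 13709 and 13925 on the HFD arrays and 11923 on the ND array, a log2 difference of 0.21 ± 0.08 (SE, adjusted p = 0.0389). That rise is the weakest call among the members. Under quantile normalization it was 0.01 (adjusted p = 0.916), and the call also ended with no filter (adjusted p = 0.162). It ended as well when the variance trend was dropped (adjusted p = 0.240), with robust variances (adjusted p = 0.0511) and with probe sets averaged (adjusted p = 0.0527).

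**Figure D2:**
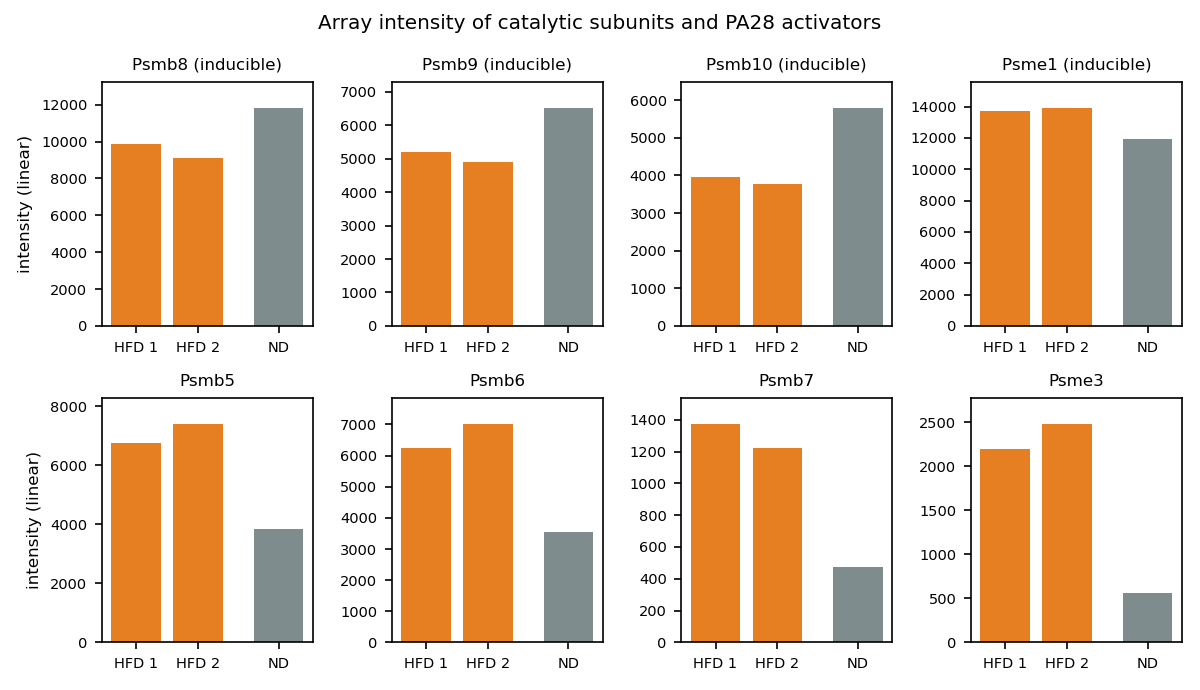
Linear array intensity (y axis, each panel from 0) on HFD 1, HFD 2 and ND for 4 inducible genes (top row) and, below, Psmb5, Psmb6, Psmb7 and Psme3; bars are single arrays, so there are no error bars. Psmb8, Psmb9 and Psmb10 are taller in ND, and the genes of the bottom row are taller in HFD.

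The constitutive catalytic subunits rose, all 3 of them. Psmb5, the chymotrypsin-like subunit, read 6766 and 7392 on the HFD arrays and 3848 on the ND array, 1.83-fold (adjusted p = 1.8e-05). Psmb6, the caspase-like subunit, read 6250 and 7009 on the HFD arrays and 3549 on the ND array, 1.86-fold (adjusted p = 2.1e-05). Psmb7, the trypsin-like subunit, read 1372 and 1223 on the HFD arrays and 477 on the ND array, 2.66-fold (adjusted p = 6.6e-06). Both HFD arrays exceeded the ND array at each of them, by more than the HFD arrays differed from each other.

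The ratio of each inducible subunit to the constitutive one it replaces was therefore lower on both HFD arrays than on ND. Levels of different probe sets cannot be compared, but changes of their ratio between arrays can. Psmb8 over Psmb5 changed by -1.08 on HFD 1 and -1.31 on HFD 2 on the log2 scale, a ratio 2.28-fold lower on average than in ND. Psmb9 over Psmb6 changed by -1.14 and -1.39, 2.41-fold lower. Psmb10 over Psmb7 changed by -2.04 and -1.95, 3.97-fold lower. The median of the 4 inducible genes minus that of the 41 standard genes was -1.03 on HFD 1 and -1.29 on HFD 2. These ratios are given as descriptions, with no test.

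**Figure D3:**
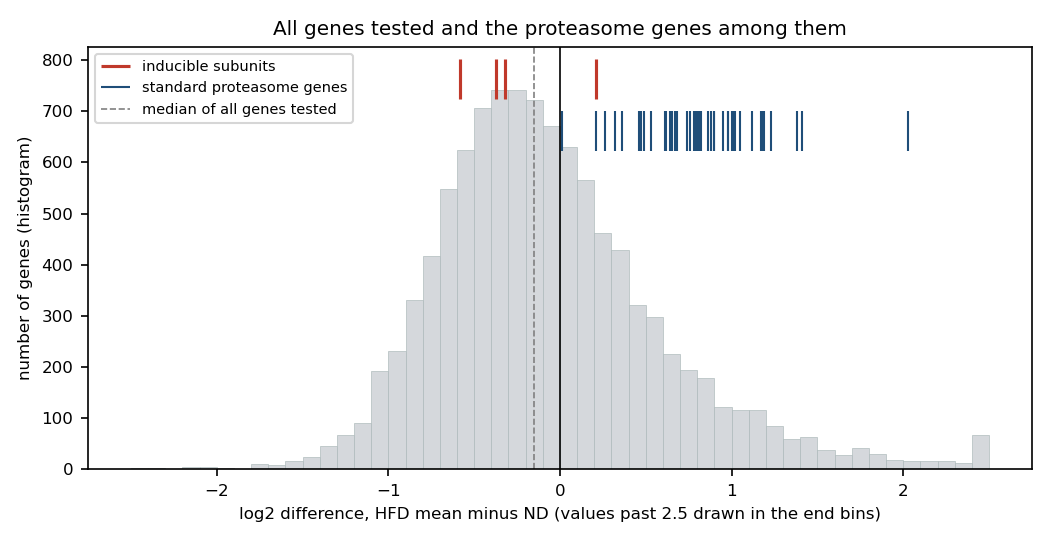
Histogram of the log2 difference HFD minus ND for the 10341 genes tested (x axis; y axis, number of genes), with ticks for the 41 standard proteasome genes (blue) and the 4 inducible genes (red). The standard genes range from 0.01 to 2.03 and the inducible ones from -0.58 to 0.21, around an all-gene median of -0.15 (dashed).

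The promoters below are shown for the catalytic pairs with both partners in the RefSeq promoter table (GRCm38.p6), and for Psme1 and Psme3, which encode different PA28 activators and moved by different amounts. Each spans 250 bases before to 50 after the annotated start and reads 5′ to 3′. Capitals mark matches, on either strand, to the antioxidant response element bound by NRF1 and NRF2 (TGACNNNGC), to the interferon-stimulated response element (GAAA, any 2 bases, GAAA) or the CCAAT box (CCAAT).
Psmb8: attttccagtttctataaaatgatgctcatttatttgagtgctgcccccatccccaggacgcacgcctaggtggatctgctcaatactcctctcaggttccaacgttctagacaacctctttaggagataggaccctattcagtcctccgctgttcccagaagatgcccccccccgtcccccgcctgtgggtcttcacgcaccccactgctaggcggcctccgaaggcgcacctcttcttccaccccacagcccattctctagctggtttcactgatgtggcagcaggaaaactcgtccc
Psmb5: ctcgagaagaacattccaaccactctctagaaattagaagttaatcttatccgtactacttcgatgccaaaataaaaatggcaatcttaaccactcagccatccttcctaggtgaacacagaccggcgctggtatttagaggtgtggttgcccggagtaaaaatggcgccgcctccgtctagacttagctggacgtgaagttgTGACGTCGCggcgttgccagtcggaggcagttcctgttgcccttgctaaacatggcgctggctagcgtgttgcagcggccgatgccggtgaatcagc
Psmb9: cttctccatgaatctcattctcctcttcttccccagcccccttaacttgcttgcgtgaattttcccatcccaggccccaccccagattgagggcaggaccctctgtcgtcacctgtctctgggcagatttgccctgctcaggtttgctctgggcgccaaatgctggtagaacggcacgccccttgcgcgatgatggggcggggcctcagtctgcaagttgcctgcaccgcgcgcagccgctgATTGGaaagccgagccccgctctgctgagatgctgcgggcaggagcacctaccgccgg
Psmb6: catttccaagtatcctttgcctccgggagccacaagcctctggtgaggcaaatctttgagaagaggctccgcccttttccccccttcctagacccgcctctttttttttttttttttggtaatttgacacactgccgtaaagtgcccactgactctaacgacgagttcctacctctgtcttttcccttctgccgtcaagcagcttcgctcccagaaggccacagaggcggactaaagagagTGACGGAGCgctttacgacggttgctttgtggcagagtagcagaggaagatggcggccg
Psme1: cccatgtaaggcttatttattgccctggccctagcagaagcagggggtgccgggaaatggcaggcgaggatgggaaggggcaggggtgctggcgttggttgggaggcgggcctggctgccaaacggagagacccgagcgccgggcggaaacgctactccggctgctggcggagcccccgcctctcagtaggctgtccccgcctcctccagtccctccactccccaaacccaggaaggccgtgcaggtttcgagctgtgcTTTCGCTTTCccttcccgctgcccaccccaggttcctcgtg
Psme3: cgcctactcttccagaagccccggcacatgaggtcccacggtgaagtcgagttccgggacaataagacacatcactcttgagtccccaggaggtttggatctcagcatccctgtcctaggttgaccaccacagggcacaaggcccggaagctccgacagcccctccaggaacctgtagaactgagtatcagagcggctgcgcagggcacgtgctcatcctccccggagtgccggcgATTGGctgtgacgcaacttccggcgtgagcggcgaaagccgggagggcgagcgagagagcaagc

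The windows lie at chr17:34197945-34198244 on the plus strand for Psmb8, chr14:54617946-54618245 on the minus strand for Psmb5 and chr17:34187281-34187580 on the minus strand for Psmb9. Those of the other genes lie at chr11:70525107-70525406 on the plus strand for Psmb6, chr14:55578244-55578543 on the plus strand for Psme1 and chr11:101315963-101316262 on the plus strand for Psme3. No printed window holds more than 1 match, so none overlap. Psmb5 and Psmb6, which rose, match the antioxidant response element, at positions -47 to -39 and -9 to -1 from the start. Psme1 matches the interferon-stimulated element at 10 to 19, and the window of Psmb8, which fell, holds no match to these motifs. Psmb9 and Psme3 match the CCAAT box, at -8 to -4 and -14 to -10.

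Of the 49 genes, 41 had a promoter in that table. The antioxidant response element was found in 16.2% of the 37 promoters of standard genes and in 12.4% of all 32851 promoters. The interferon-stimulated element was found in 10.8% of the standard promoters and 3.44% of all promoters. The CCAAT box was found in 35.1% of the standard promoters and 37.4% of all. Among the 4 inducible promoters the same motifs, in that order, were found in 0, 1 and 1. A match describes letters in the window only.

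Of the constitutive 20S genes tested, all but Psmb1 rose. All 7 tested alpha-ring genes were called higher, with a median log2 difference of 0.78. Psma5 changed most, reading 9914 and 11866 on the HFD arrays and 4625 on the ND array, 2.34-fold (adjusted p = 1.8e-06). The smallest rise was that of Psma3, whose subunit helps to close the gate of the barrel, with 13374 and 14533 on the HFD arrays and 10136 on the ND array, 1.37-fold (adjusted p = 6.8e-04). The others, Psma1, Psma2, Psma4, Psma6 and Psma7, rose 1.53-fold to 1.76-fold. Of the 7 constitutive beta-ring genes, 6 rose, with a median of 0.88 over the 7. Beside the catalytic subunits these were the structural subunits Psmb2 (1.86-fold), Psmb3 (1.59-fold) and Psmb4 (1.41-fold). Psmb1, a structural subunit as well, read 7879 and 8234 on the HFD arrays and 6962 on the ND array and was not called (log2 0.21 ± 0.09, adjusted p = 0.0702).

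The 19S regulator rose in all its tested parts. All 6 ATPases, the ring that unfolds substrates, were called higher, with a median log2 difference of 0.87 and a range from 0.61 (Psmc3) to 1.02 (Psmc4). Psmc5 read 4328 and 4750 on the HFD arrays and 2283 on the ND array, 1.98-fold (adjusted p = 1.5e-05). Psmc4 read 7542 and 9689 on the HFD arrays and 4221 on the ND array, the widest gap between the HFD arrays among the ATPases, with the lower of them still above ND. The 11 non-ATPase subunits were all called higher too, with a median of 0.86.

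Psmd7, a scaffold partner of the deubiquitinase Psmd14, had the largest rise of the 19S subunits. It read 2580 and 2873 on the HFD arrays and 1035 on the ND array, 2.60-fold (adjusted p = 2.4e-06). Psmd1, the scaffold that holds ubiquitin receptors, read 5664 and 6355 on the HFD arrays and 2755 on the ND array, 2.17-fold (adjusted p = 4.0e-06). Psmd12, a lid subunit, read 4905 and 5671 on the HFD arrays and 2627 on the ND array (adjusted p = 1.7e-05). The lower HFD array was above the ND array in each case. Psmd14 itself rose 1.67-fold, and Psmd4, a ubiquitin receptor, had the smallest rise, 1.38-fold (adjusted p = 0.00267). The other 6, Psmd2, Psmd3, Psmd6, Psmd8, Psmd11 and Psmd13, rose 1.57-fold to 2.01-fold.

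The assembly chaperones with Psm names were grouped by the particle they serve. All 4 Psmg chaperones of the 20S core rose by about the same amount, with log2 differences from 1.05 to 1.19. Pomp, a 20S maturation factor outside these names, rose less, by 0.65. Psmg1 read 2998 and 3629 on the HFD arrays and 1435 on the ND array (2.28-fold), and its partner Psmg2 read 4912 and 5584 on the HFD arrays and 2324 on the ND array (2.24-fold). Psmg3 read 1537 and 1678 on the HFD arrays and 698 on the ND array (2.27-fold), and its partner Psmg4 read 1796 and 1927 on the HFD arrays and 887 on the ND array (2.08-fold). Their adjusted p-values ran from 4.0e-06 to 3.1e-05. Of the 3 chaperones of the 19S base, 1 was called. Psmd10, known as gankyrin, read 1326 and 1368 on the HFD arrays and 1333 on the ND array (log2 0.01 ± 0.13, adjusted p = 0.938), so the HFD arrays lay on both sides of ND. Psmd5 read 1850 and 1729 on the HFD arrays and 1487 on the ND array (log2 0.26 ± 0.13, adjusted p = 0.0986). Centring of the arrays gave it a call (0.33, adjusted p = 0.0371). Psmd9 read 834 and 970 on the HFD arrays and 616 on the ND array, 1.45-fold (adjusted p = 0.0109). With probe sets averaged its log2 difference was 0.00 (adjusted p = 0.990), and the call also ended with no filter (adjusted p = 0.0585) and when the variance trend was dropped (adjusted p = 0.0561). The difference between the 2 classes of chaperone was not tested.

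The largest rise among the members was that of Psme3, the gamma chain of the nuclear PA28 activator, which is not interferon-inducible. Psme3 read 2201 and 2477 on the HFD arrays and 559 on the ND array, 4.08-fold (log2 2.03 ± 0.13 SE, adjusted p = 1.4e-07). Only 1.17% of the genes tested had a larger log2 difference. Its other probe set past the filter differed by 1.53. The nuclear activator PA200, Psme4, read 3261 and 3281 on the HFD arrays and 2536 on the ND array, 1.29-fold (adjusted p = 0.0145), a call that ended when the variance trend was dropped (adjusted p = 0.0842) and with probe sets averaged (-0.05, adjusted p = 0.770). Psmf1, which inhibits the 20S core in vitro, read 716 and 802 on the HFD arrays and 601 on the ND array (log2 0.32 ± 0.15, adjusted p = 0.0922). Quantile normalization gave Psmf1 a call (0.44, adjusted p = 0.0288), as did centring of the arrays (0.39, adjusted p = 0.0331).

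At the size of at least 2-fold above ND on both HFD arrays, with no p-value, 10 members qualified: Psma5, Psmb7, Psmd1, Psmd7, Psme3, the 4 Psmg chaperones and Psmc3ip. Of all genes tested, 6.00% did. No member was at least 2-fold below ND on both HFD arrays (0 of 47), where 2.60% of all genes were. Of the 41 standard genes, 39 read higher on HFD 2 than on HFD 1, against 50.6% of all genes tested. The exceptions were Psmb7 and Psmd5, which were higher on HFD 1.

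Probe sets of a gene did not always move together. Of the 24 members with more than 1 probe set past the filter, 6 had probe sets of opposite sign: Psma6, Psmb1, Psmd9, Psme4, Psmf1 and Psmg2. In Psme4, 3 probe sets lay between 0.36 and 0.40 and the 2 dimmest past the filter at -0.47 and -0.94. Psma6 differed by 0.78 and 0.79 on its bright probe sets and by 0.07 and -0.02 on its dimmer ones. Psmg2 differed by 1.17 and 1.28 on its bright probe sets and by -0.18 on a dim one, which read 79.1 and 81.8 on the HFD arrays and 93.6 on the ND array. Dim probe sets held most of the disagreement. Of 60 probe sets of standard genes above the 75th percentile of brightness, 57 were higher than ND on both HFD arrays and 1 was lower on both. Of the 21 between the median and that level, 11 were higher on both and 6 lower on both.

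**Figure D4:**
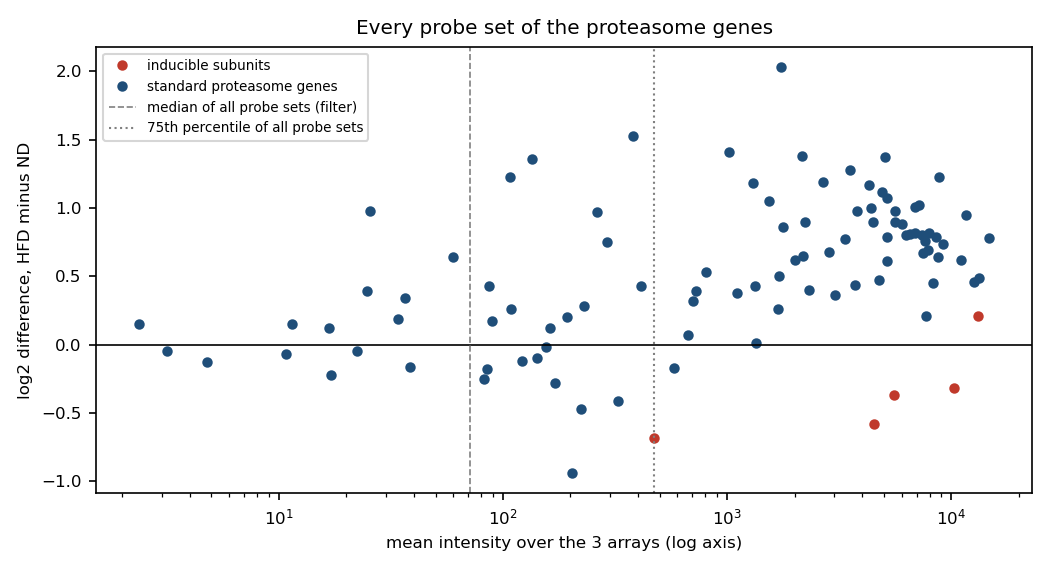
Log2 difference HFD minus ND (y axis) against mean intensity over the 3 arrays (x axis, log scale) for every single-gene probe set of the proteasome genes; red points are inducible subunits, blue points the others, and vertical lines mark the filter (71.4) and the 75th percentile of all probe sets (473.5). The blue points right of the second line are nearly all above 0, and those left of it scatter around 0.

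The remaining members complete the set. Psma8, an alpha subunit of spermatocytes, read 17.6 and 57.2 on the HFD arrays and 27.5 on the ND array, and Psmb11, the catalytic subunit of the thymoproteasome of thymic cortical epithelium, read 4.88 and 3.28 on the HFD arrays and 6.16 on the ND array. Both lay below the filter and were not tested. Psmc3ip read 615 and 700 on the HFD arrays and 169 on the ND array, 3.62-fold (adjusted p = 3.1e-06), and Psme3ip1 read 1759 and 1730 on the HFD arrays and 1617 on the ND array and was not called (adjusted p = 0.490).

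Partners of the proteasome outside the Psm names went mostly the same way. Of 9 tested, 5 rose and 1 fell, with a median log2 difference of 0.45. Over all genes tested, 20.5% were called higher and 29.2% lower. Uchl5, a deubiquitinase bound to the 19S base, read 4223 and 4693 on the HFD arrays and 1818 on the ND array (2.43-fold), and Usp14, another one, read 2858 and 3255 on the HFD arrays and 1515 on the ND array (adjusted p = 3.3e-05). The thioredoxin-like Txnl1, which binds the 19S particle, rose 1.78-fold and Pomp, the maturation factor of the 20S core, rose 1.57-fold (adjusted p = 9.0e-05). Of 7 tested ubiquitin-activating enzymes and shuttle or segregase cofactors, 5 rose and 1 fell, with a median of 0.52. The same shares over all genes apply here. Among them the shuttle Rad23b rose 1.74-fold and the E1 enzyme Uba6 rose 1.72-fold. Ubqln4, a shuttle, and Nploc4, a cofactor of VCP, rose 1.56-fold and 1.44-fold. The Rad23b call ended with probe sets averaged (adjusted p = 0.0948) and the Nploc4 call with no filter (adjusted p = 0.0741).

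The pathway that raises proteasome genes when proteasome activity is short runs through NRF1 (Nfe2l1), which is extracted from the endoplasmic reticulum, deglycosylated and cleaved before it acts. Of 9 tested genes of that axis, 2 rose and 4 fell, with a median of -0.41, where 20.5% of all genes were called higher and 29.2% lower. The number that rose is near that background. Nfe2l1 itself, named because the pathway turns on it, read 828 and 785 on the HFD arrays and 801 on the ND array (adjusted p = 0.967). Vcp, the segregase of the extraction step, read 12777 and 13668 on the HFD arrays and 8264 on the ND array, 1.60-fold (adjusted p = 3.6e-05). Ngly1, the deglycosylating enzyme, read 2397 and 2121 on the HFD arrays and 3388 on the ND array and fell by 0.58 on the log2 scale (adjusted p = 0.00156). Sel1l, part of the extraction machinery, fell by 0.53 (adjusted p = 0.00473, but 0.178 with probe sets averaged), and Mafg, which encodes a small MAF partner, rose 1.35-fold (adjusted p = 0.0243). The Mafg call ended with no filter (adjusted p = 0.0680), with probe sets averaged (adjusted p = 0.136) and when the variance trend was dropped (adjusted p = 0.0642). Array values show RNA only, not the processing of the NRF1 protein.

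Of 12 tested MHC class I loading genes, 2 rose and 5 fell, where 20.5% of all genes were called higher and 29.2% lower. Their median log2 difference of -0.13 was close to the -0.15 of all genes, so the list as a whole did not stand out from that background. Nlrc5, the transcriptional activator of class I genes and of Psmb9, read 4489 and 4330 on the HFD arrays and 7209 on the ND array and fell by 0.71 on the log2 scale (adjusted p = 8.5e-05). Tap1, a chain of the peptide transporter, read 4472 and 3927 on the HFD arrays and 6398 on the ND array and fell by 0.61 (adjusted p = 5.6e-04). The bridge protein gene Tapbp fell by 0.57 (adjusted p = 3.6e-04), and the chaperone Canx rose 1.59-fold (adjusted p = 4.0e-04), a call that ended when the variance trend was dropped (adjusted p = 0.0510). B2m, the light chain, was level at 32611 and 32136 on the HFD arrays and 32301 on the ND array (adjusted p = 0.971).

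Of 10 tested interferon pathway regulators, 0 rose and 6 fell in limma's test, with a median of -0.45, and the counts were the same at an unadjusted p under 0.05. Of all genes tested, 29.2% were called lower. Ifng itself read 2622 and 1795 on the HFD arrays and 5285 on the ND array and fell by 1.28 on the log2 scale (adjusted p = 6.7e-05). Irf2 and Irf9, transcription factors of the pathway, fell by 0.64 each (adjusted p = 0.00159 and 0.00180), and the kinase Jak1 fell by 0.50 (adjusted p = 5.8e-04). Both HFD arrays lay under ND at all 4.

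**Figure D5:**
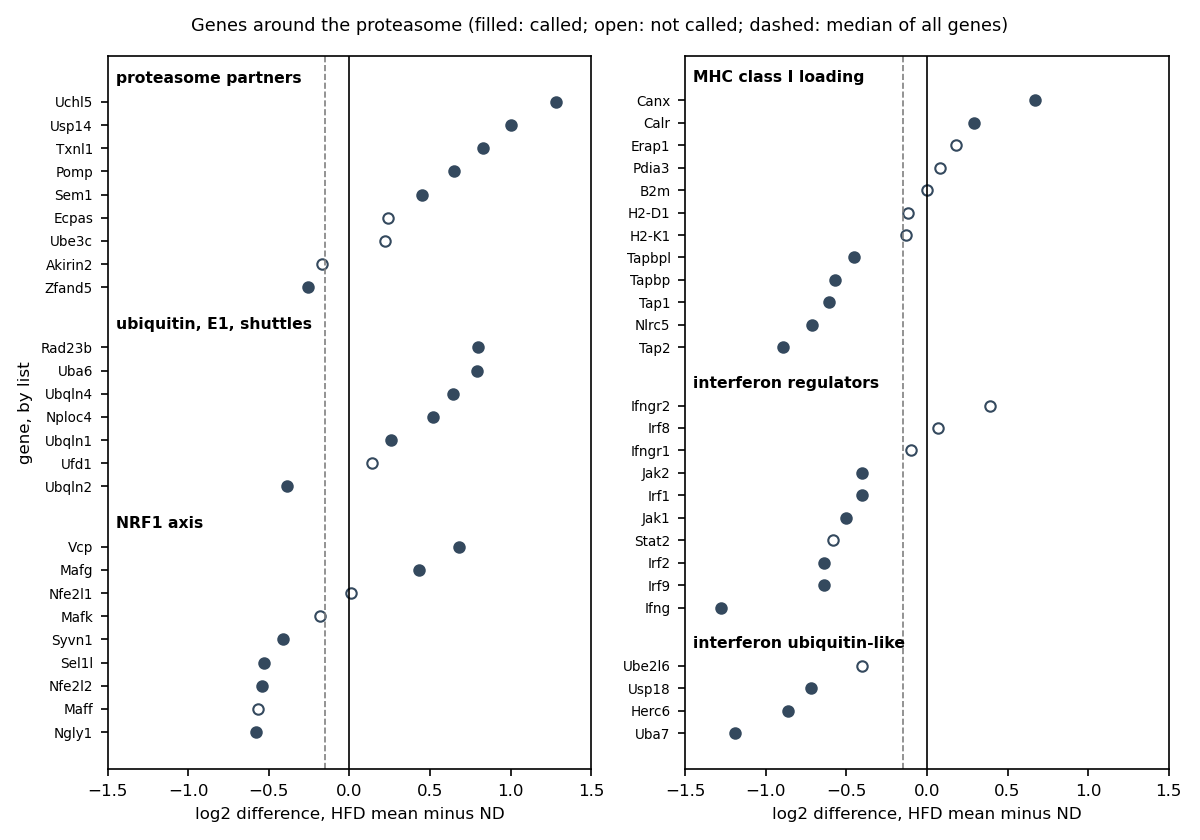
Log2 difference HFD minus ND (x axis) of the tested genes of 6 lists around the proteasome (y axis); filled points passed the test and open points did not, and the dashed line is the median of all genes (-0.15). Proteasome partners and ubiquitin genes lie mostly right of 0, and the interferon lists mostly left of it.

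Markers of other cells moved beside these genes, and their part in the results was not tested. As background to the counts here, 20.5% of all genes tested were called higher and 29.2% lower. Antigen-presenting cells are known for high immunoproteasome and class II levels. Of 7 tested dendritic cell markers, 5 fell, and the summed intensity of the 8 with a probe set was 2127 and 2485 on the HFD arrays and 5817 on the ND array. Of 6 tested macrophage markers, 4 fell, with sums over 9 genes of 795 and 999 on the HFD arrays and 2219 on the ND array. Near the bottom of the scale, C1qc read 18.0 and 6.20 on the HFD arrays and 15.1 on the ND array. Of 7 class II genes, 5 fell and H2-Ea rose, with sums of 7946 and 7785 on the HFD arrays and 13946 on the ND array. The T cell markers fell as well, 6 of 7, with sums of 64105 and 62408 on the HFD arrays and 78618 on the ND array. Of 5 tested B cell markers 1 rose and 1 fell, and the summed intensity of the 7 with a probe set was 2818 and 2931 on the HFD arrays and 1690 on the ND array. Ms4a1 carried that difference, and without it the sums were 1206 and 1093 on the HFD arrays and 1634 on the ND array, with a median log2 difference of -0.27 over the 5. For neutrophils 2 of 3 rose, with sums of 663 and 733 on the HFD arrays and 264 on the ND array. The rises were those of S100a8 and S100a9, and without S100a8 the sums were 416 and 370 on the HFD arrays and 223 on the ND array. Ngp was not called, at 96.2 and 69.1 on the HFD arrays and 76.1 on the ND array. The rest of the list lay below the filter. For CD8 T and NK cells 1 of 3 rose and 1 fell, with sums of 2166 and 2289 on the HFD arrays and 2736 on the ND array. That lower sum came from Klrd1, and without it the sums were 662 and 799 on the HFD arrays and 497 on the ND array, with a median log2 difference of 0.32 over the 3.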

How the data were processed

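RNA was measured on 3 Affymetrix mouse arrays (HFD 1, HFD 2, ND). The deposited values are linear intensity per probe set, made by the authors with GCOS, Affymetrix's array software, per the submitters' processing notes; the sources used here give no algorithm, version or background correction. Each array's mean after trimming 2% at each end is 500.0, a scaling that leaves medians free (69.7, 67.4 and 78.3 without control probe sets). Apart from 64 controls, 34945 of 45037 probe sets had 1 gene symbol, 932 several and 9160 none. Symbols were checked by Entrez identifier against RefSeq GRCm38.p6 (34741 matched, 0 differed).

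Values were transformed as log2(intensity + 17.65), the 25th percentile of all values. Genes with a brightest probe set above a mean of 71.4 were tested by limma 3.58.1 (trend) in R 4.3.3, two-sided. The fit had 1 residual and 11.69 prior degrees of freedom. It was also run on simulated data in which ND varied like HFD, so that run could not test this assumption. Tables and plots used Python 3.11.15, pandas 2.3.3, numpy 2.4.6 and matplotlib 3.10.9. Named genes followed a rule: the inducible and constitutive catalytic genes, the 12 largest called rises, all falls, discordant probe sets, chaperones and activators. From each related list up to 4 called genes were added. Others are extras outside the rule, such as B2m, Ube2l6, Ubd, C1qc and Ngp, or were given to account for every member. Members and lists were chosen with earlier results of these data known. A planned comparison of protein sequences was not made here, and 1 planned promoter motif is not reported here.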

Additional observations from a re-analysis of the deposited data

How the results depend on the processing

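Alternatives concerned normalization, offset, filter, probe-set merging, variance model and threshold; those for the ratios of catalytic subunits were chosen after seeing the data. The number of standard genes called higher, 37, stayed within 1.5 times, from 33 to 40, and 0 of these genes were called lower in any of them. Single rises were less stable, and with probe sets averaged Psmd9 went from 0.53 to 0.00. Without a variance trend 1 inducible subunit, Psmb10, was called lower in place of 3, which is also the count over all members, and calls for Psma3 (adjusted p = 0.0592) and Psmd4 (adjusted p = 0.0594) ended. With arrays centred Psmb1 was called higher (0.28, adjusted p = 0.0378). The 1 inducible rise, Psme1, became 0 under quantile normalization, with no filter, with probe sets averaged, without a variance trend, with robust variances and at an adjusted p under 0.01. Quantile normalization moved the median log2 difference of the members (0.79) to 0.66 and of the inducible genes (-0.34) to -0.50; averaging probe sets moved the inducible median to -0.44. The Psmb8 over Psmb5 ratio (-1.19) became -1.38 with probe sets averaged, and Psmb10 over Psmb7 (-1.99) became -2.20 under quantile normalization and -1.90 with an offset equal to the median intensity. Averaging probe sets turned Psme4 to -0.05. The cause was not tested.

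Leaving out an HFD array leaves no residual degrees of freedom, so these are values with no test. Medians then ran from 0.73 to 0.85 for the members, from 0.74 to 0.90 for the standard genes, from -0.39 to -0.30 for the inducible genes and from -1.29 to -1.03 for their difference. The ratios ran from -1.31 to -1.08 (Psmb8), -1.39 to -1.14 (Psmb9) and -2.04 to -1.95 (Psmb10). No paired analysis was possible because ND has 1 array. No detection calls were used, so background and low signal cannot be told apart.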

Other observations

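Genes of the interferon system that attaches the ubiquitin-like modifier ISG15 to proteins were examined as a list. Of its 4 tested genes, 3 fell and 0 rose in limma's test, at an adjusted or an unadjusted p under 0.05, with a median log2 difference of -0.79, where 29.2% of all genes tested were called lower. Uba7, the E1 enzyme of ISG15, read 739 and 581 on the HFD arrays and 1521 on the ND array and fell by 1.19 on the log2 scale (adjusted p = 7.2e-05). Herc6, the mouse ligase of the pathway, read 775 and 738 on the HFD arrays and 1384 on the ND array and fell by 0.86 (adjusted p = 2.9e-04). Usp18, which removes ISG15, read 657 and 550 on the HFD arrays and 1002 on the ND array and fell by 0.72 (adjusted p = 0.00227). Ube2l6, the conjugating enzyme, read 101 and 91.3 on the HFD arrays and 132 on the ND array and was not called (adjusted p = 0.300). Ubd, a ubiquitin-like modifier that targets proteins to the proteasome, lay below the filter, at 26.8 and 12.6 on the HFD arrays and 16.9 on the ND array. Both HFD arrays lay under ND at the 4 tested genes.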
